A study of Sus scrofa with 22 samples.

Results

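The 7 genes VWF, SOX7, ARHGEF15, PECAM1, KDR, FLT1 and TEK are genes of the endothelium, the cell layer that lines blood vessels. They were chosen by name and were sought in 14 libraries of pig fetus tissue, after RefSeq transcript records had been matched to gene symbols by accession without its version. All 7 had a matched record, out of 14389 symbols with one, and all 7 passed the filter on low counts, which left 9911 genes for testing. The genes were chosen with results of these libraries already known, those of day 35 clones among them, and which values chose each gene is not stated. Comparisons with clones at day 35 are therefore given as a description. They carry no p-value, and nothing is read from a count of genes past the threshold in them. Nor can the p-values of the other comparisons be taken as independent of the choice.

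Blood vessels of a fetus form when endothelial cells assemble into tubes and then sprout and branch. The growth factor VEGFA drives this through its main signalling receptor, the kinase KDR (also called VEGFR2). FLT1 (VEGFR1) binds the same ligand tightly, signals weakly and limits how much of it reaches KDR, and its own ligand PGF binds FLT1 but not KDR. TEK (TIE2) is the receptor of the angiopoietins: ANGPT1 activates it and steadies vessels, and ANGPT2 mostly counters that. PECAM1 is an adhesion molecule of endothelial cell junctions, also found on platelets and many leukocytes. VWF is the clotting glycoprotein stored in endothelial granules and also made by megakaryocytes. SOX7 is a transcription factor of the early endothelium, and ARHGEF15 is an exchange factor for small GTPases found mainly in endothelial cells.

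The series holds 22 pig (Sus scrofa) RNA libraries, of which 14 come from fetuses and 8 from embryos cultured to day 6. The embryo libraries, 2 of each, are titled WT, WT+Kdm4A, XIST-KO (a knockout of XIST) and IVF (in vitro fertilized). Fetuses were sampled at day 30 and day 35, and the tissue is labelled only as body tissue. At each day there were 2 libraries of cloned fetuses titled abnormal, 3 of cloned fetuses titled normal and 2 of naturally fertilized (NF) fetuses. Cloning was by somatic cell nuclear transfer, in which the nucleus of a body cell is placed in an egg. The labels give neither the donor cell line nor what made a fetus abnormal, and no fetus group carries a labelled gene change or treatment. Whether replicates came from separate animals is not stated, so p-values measure only the spread between these libraries, which may be technical.

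Fetus libraries held 0.59 to 11.54 M expected counts, of which 66% to 69% were in records matched to a gene. Day 35 abnormal replicate 2 was the shallowest by far, with 0.41 M gene counts against 2.33 M or more in each other fetus library. By rank correlation over genes it was nearer to day 30 NF replicate 1 (Spearman 0.908) than to day 35 abnormal replicate 1 (0.789). Sex labels also went against the Y-linked gene EIF1AY, chosen after its values were seen. It had 0 counts in day 30 NF replicate 1 and in both day 35 abnormal libraries, all labelled male, and 220 counts in day 30 NF replicate 2, labelled female. The pair of day 30 NF libraries thus differed in labelled and in measured sex, and they also lay far apart in 3 of the 7 genes, SOX7, PECAM1 and KDR.

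Expression levels are CPM, counts scaled to library size with TMM factors. Levels are compared between genes only on the deposited TPM scale, which divides by transcript length. In TPM, PECAM1 was the most abundant of the 7 genes and KDR the next in 5 of the 6 groups, for example 50 ± 0.544 TPM and 30.9 ± 0.702 TPM in day 30 normal clones (SD, n = 3). The ranges of these 2 genes did not overlap in either clone group at day 30, in day 35 normal clones or in day 35 NF fetuses, but did so in day 30 NF fetuses. In day 30 normal clones VWF, TEK, SOX7 and FLT1 followed at 6.45 to 7.87 TPM with overlapping ranges, and ARHGEF15 was lowest at 3.43 ± 2.37 TPM.

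The place of VWF in this order differed between NF fetuses and the clones other than day 35 abnormal ones. VWF stood in the third or the fourth place among the 7 genes in day 30 abnormal, day 30 normal and day 35 normal clones, at 7.87 to 12.45 TPM. In NF fetuses it was the lowest of the 7, at 1.43 ± 0.347 TPM at day 30 and 0.855 ± 0.12 TPM at day 35 (SD, n = 2 each). At day 30 its NF range overlapped that of SOX7, the next gene up, and at day 35 it overlapped none. In day 35 abnormal clones VWF had rank 5 of the 7, at 0.285 TPM from 1 to 8 counts per library. That level lay below both NF groups.

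**Figure D1:**
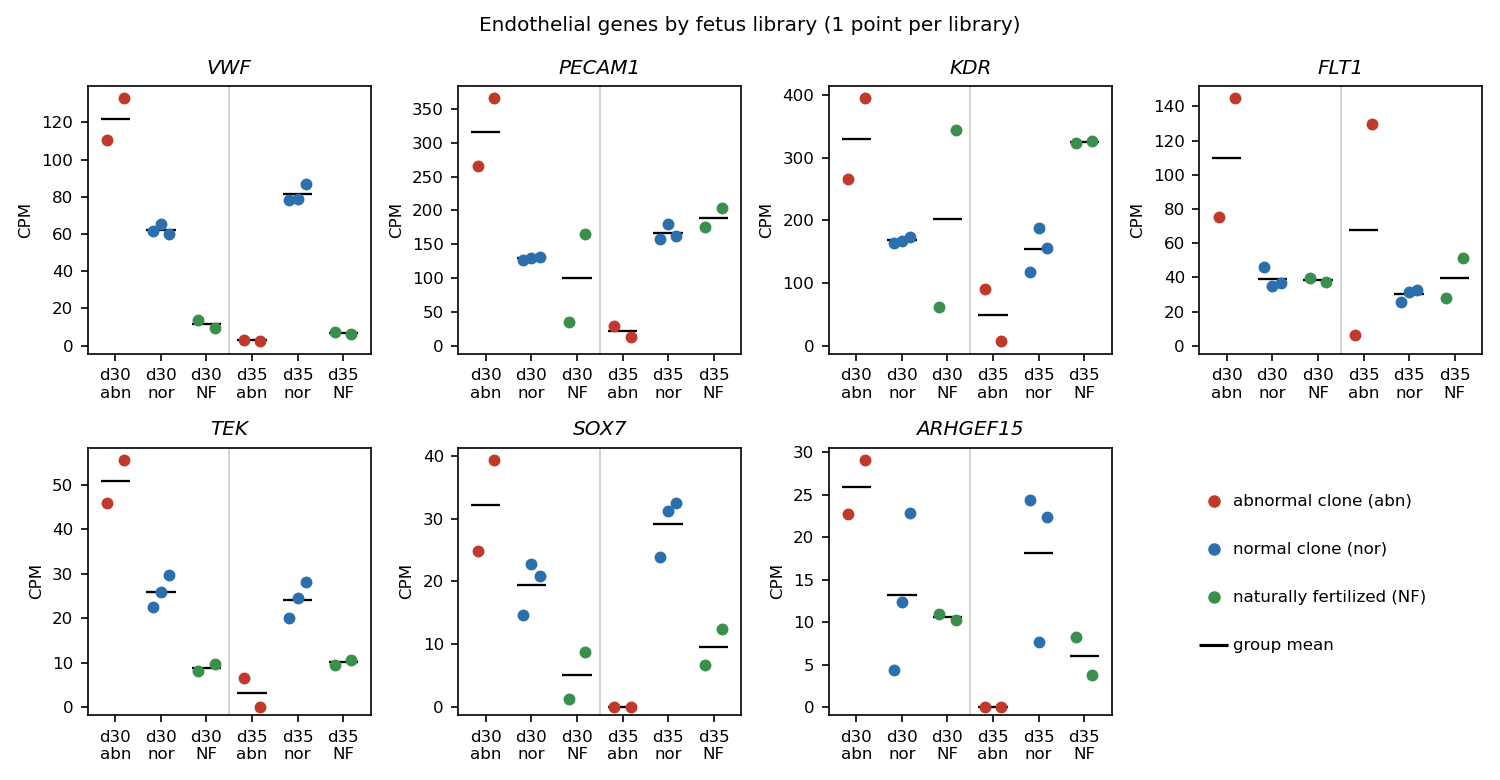
CPM of each gene (vertical axes, starting at 0) in each of the 14 fetus libraries, grouped by day and title; points are libraries and bars are group means. VWF and TEK were higher in every day 30 clone library than in any NF library, whereas KDR and PECAM1 spread widely between the 2 NF libraries of day 30, and day 35 abnormal libraries were near 0 for VWF, SOX7, ARHGEF15 and TEK.

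Abnormal and normal clones were compared at day 30 to ask whether clones of unequal outcome differ in their endothelial transcripts. All 7 genes had higher mean levels in abnormal clones, and VWF passed the test. VWF measured 110.5 and 133 CPM in the abnormal libraries and 61.5, 65.3 and 59.8 CPM in the normal ones. Both abnormal libraries lay well above the normal ones, which varied little. The difference was 1.96-fold, or 0.97 ± 0.17 on the log2 scale (± SE here and in later log2 fold changes; adjusted p = 0.00584, edgeR quasi-likelihood test with Benjamini-Hochberg adjustment over 9911 genes).

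The remaining junction gene and the receptors were higher by similar factors without passing that test. PECAM1 measured 265 and 366 CPM in abnormal libraries against 127, 130.2 and 131 CPM in normal ones. TEK measured 45.9 and 55.6 CPM against 22.4, 25.9 and 29.7 CPM. The groups did not overlap in either gene, and the log2 fold changes were 1.29 ± 0.45 for PECAM1 (edgeR adjusted p = 0.0744) and 0.96 ± 0.33 for TEK (edgeR adjusted p = 0.0693). KDR measured 266 and 395 CPM against 165, 167 and 173 CPM, and FLT1 75.1 and 145 CPM against 46.3, 34.7 and 36.7 CPM. In both VEGF receptors the second abnormal library was clearly the higher one. Their log2 fold changes were 0.97 ± 0.63 for KDR (edgeR adjusted p = 0.32) and 1.49 ± 0.71 for FLT1 (edgeR adjusted p = 0.18).

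The nuclear factor and the exchange factor differed least clearly. SOX7 measured 24.9 and 39.3 CPM in abnormal libraries against 14.7, 22.8 and 20.85 CPM in normal ones (log2 fold change 0.72 ± 0.57, edgeR adjusted p = 0.421). ARHGEF15 measured 22.7 and 29.1 CPM against 4.34, 12.3 and 22.9 CPM, and was the only 1 of the 7 genes whose groups overlapped (0.96 ± 0.64, edgeR adjusted p = 0.338). Expected counts of ARHGEF15 and TEK were not whole numbers in 10 and 9 of the 14 libraries (more than 0.02 from a whole number), so their reads were partly shared with other records and these levels are less certain.

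Of the 7 genes, 1 was called higher and 0 lower at day 30 between abnormal and normal clones, where 8.93% of all genes tested were called higher and 6.46% lower. Groups did not overlap, with abnormal clones higher, for 6 of the 7 genes and for 30.9% of all genes. The median log2 fold change was 0.97 over the 7 genes and -0.02 over all genes. The calls depended on which libraries set the spread. With only the abnormal and normal day 30 libraries in the fit, 5 of 7 were called higher (VWF, PECAM1, KDR, FLT1 and TEK), beside 21.5% of all genes, and without day 30 abnormal replicate 2 none was (VWF log2 fold change 0.83, edgeR adjusted p = 0.0667). On log2(TPM + 1) none was called with limma, where the median of all genes moved to -0.27 and that of the 7 genes to 0.63.

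Markers of other cell types moved with this comparison, in which 8.93% of all genes were called higher and 6.46% lower. The summed level of 12 leukocyte genes was 282 to 393 CPM in abnormal clones and 87.4 to 109 CPM in normal ones, with 7 of the 12 called higher, and PECAM1 is also a leukocyte molecule. The summed level of 7 trophoblast and extraembryonic genes was 2009 to 2601 CPM against 182 to 239 CPM, with 5 called higher, and FLT1 is also made by trophoblast. The 7 matched megakaryocyte and platelet genes summed to 8.3 to 10.3 CPM against 10.7 to 10.9 CPM, with PPBP at 0 in both groups. Erythroid genes, 10 in all, had 1 called lower. Of 7 mural genes, which mark the pericytes and muscle cells around vessels, none passed the edgeR test and DESeq2 called 3 higher. The part of leukocyte and trophoblast RNA in the levels of the 7 genes was not tested. In bulk tissue, more or fewer endothelial cells and more or less RNA of these genes per cell cannot be told apart.

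Normal clones were compared with NF fetuses at day 30, a comparison that shares the normal libraries with the one above. VWF, TEK and SOX7 were called higher in normal clones, while PECAM1, KDR, FLT1 and ARHGEF15 did not pass the test. VWF measured 13.9 and 9.45 CPM in NF libraries, below every normal clone, a difference of 5.3-fold (log2 fold change 2.41 ± 0.20, edgeR adjusted p = 7.24e-05). TEK measured 8.05 and 9.61 CPM in NF libraries, also below every normal clone, a difference of 2.94-fold (1.56 ± 0.35, edgeR adjusted p = 0.008). The VWF call stood under all 25 alternatives run, with log2 fold changes of 1.88 to 2.72, and the TEK call under 23 of 24, ending on log2(TPM + 0.1).

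SOX7 measured 1.365 and 8.84 CPM in NF libraries, both below the normal clones (log2 fold change 1.94 ± 0.62, edgeR adjusted p = 0.0399). That call stood under 13 of 24 alternatives and was lost without day 30 NF replicate 1, where the log2 fold change was 1.15 (edgeR adjusted p = 0.109). PECAM1 measured 35.8 and 165.6 CPM in NF libraries and KDR 62 and 343 CPM. The normal clones lay between the 2 NF libraries for both genes, so the direction rested on which NF library was used. A fit without either NF library leaves 1 in its arm, assumed to vary like the other groups. For PECAM1 the log2 fold change was 0.36 ± 0.46 with both (edgeR adjusted p = 0.587), -0.35 without NF replicate 1 and 1.86 without NF replicate 2 (edgeR adjusted p = 0.38 and 0.00538). For KDR it was -0.27 ± 0.63 with both (edgeR adjusted p = 0.785) and 1.44 without NF replicate 2. Over the fits that left out 1 library it was -1.02 to 1.44. It was also -1.02 without day 30 NF replicate 1 and day 35 abnormal replicate 2 together, a choice made after seeing the data. KDR was not called on leaving out NF replicate 1 alone. FLT1 measured 39.4 and 37.2 CPM in NF libraries and ARHGEF15 10.9 and 10.2 CPM, within the range of normal clones. Their log2 fold changes were 0.03 ± 0.72 and 0.33 ± 0.65 (edgeR adjusted p = 0.984 and 0.74).

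Of the 7 genes, 3 were called higher in normal clones than in NF fetuses at day 30 and 0 lower, where 14% of all genes were called higher and 15.3% lower. Groups did not overlap, with normal clones higher, for the same 3 genes and for 33.2% of all genes. The median log2 fold change was 0.36 over the 7 genes and 0.00 over all genes. With both libraries that stand apart left out (day 30 NF replicate 1 and day 35 abnormal replicate 2), VWF and TEK were called higher and KDR lower, where 21.5% of all genes were called higher and 22.2% lower.

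Abnormal clones were also compared with NF fetuses at day 30, and these libraries are shared with both comparisons above. VWF was 10.4-fold higher (log2 fold change 3.38 ± 0.21, edgeR adjusted p = 2.63e-05), TEK 5.74-fold (2.52 ± 0.39, edgeR adjusted p = 0.00196) and SOX7 6.32-fold (2.66 ± 0.67, edgeR adjusted p = 0.017). The size of the SOX7 difference rested on the NF library used, with log2 fold changes of 1.87 without NF replicate 1 and 4.52 without NF replicate 2. Its call ended without abnormal replicate 2 (2.30, edgeR adjusted p = 0.086) and with only the compared groups in the fit (edgeR adjusted p = 0.0568), and the TEK call ended on log2(TPM + 0.1) (limma adjusted p = 0.0906). PECAM1 was 3.14-fold higher (1.65 ± 0.51, edgeR adjusted p = 0.0326), a call that ended under 5 alternatives. These were the fits without NF replicate 1 (0.94, edgeR adjusted p = 0.0505), without abnormal replicate 1 (1.87, edgeR adjusted p = 0.067) and without abnormal replicate 2 (1.40, edgeR adjusted p = 0.147), that with only the compared groups (edgeR adjusted p = 0.107) and that with records matched by version (edgeR adjusted p = 0.0647). Of the 7 genes, 4 were called higher and 0 lower, beside 15.5% of all genes called higher and 14.5% lower. Groups did not overlap for 6 of the 7, all but KDR, and for 34% of all genes with abnormal clones higher. FLT1 (1.52 ± 0.80, edgeR adjusted p = 0.169), ARHGEF15 (1.29 ± 0.72, edgeR adjusted p = 0.195) and KDR (0.71 ± 0.70, edgeR adjusted p = 0.465) did not pass.

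**Figure D2:**
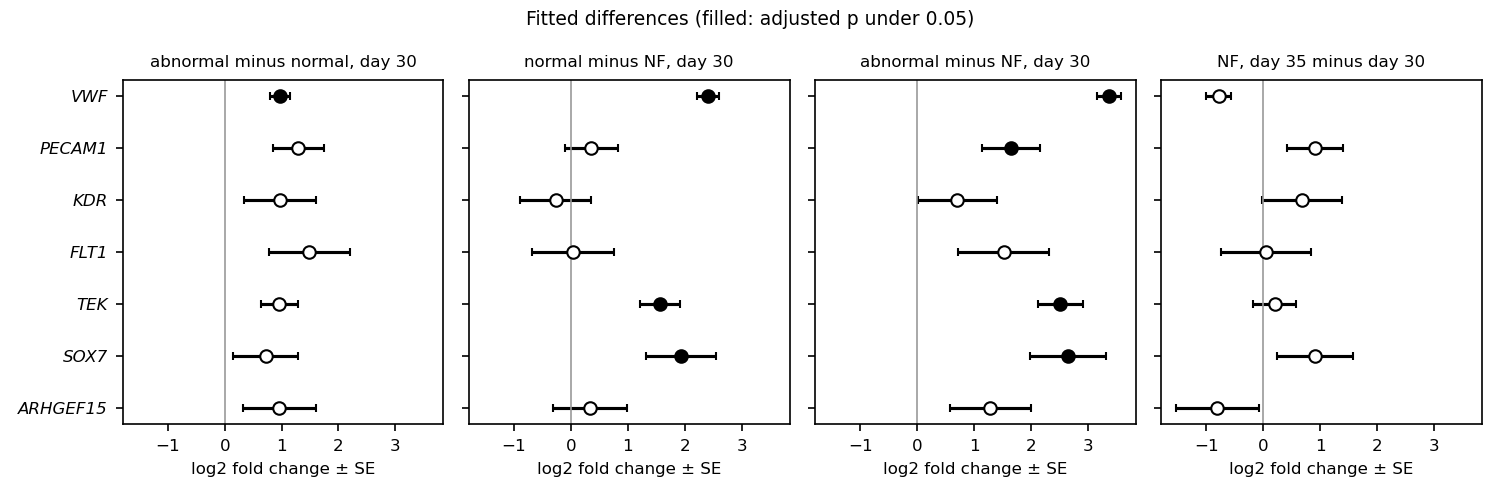
Log2 fold change of each gene (points) with its standard error (bars) from the edgeR fit, in the 4 tested comparisons; filled points passed the threshold. VWF lay above 0 in all 3 day 30 comparisons, at 0.97, 2.41 and 3.38, whereas KDR lay within about 1 SE of 0 between normal clones and NF fetuses.

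Tissue markers also differed between clones and NF fetuses at day 30. Of all genes, 14% were called higher and 15.3% lower in normal clones, and 15.5% and 14.5% in abnormal clones. Summed matrix genes of fibroblasts were 40570 to 42630 CPM in NF fetuses and 11400 to 14200 CPM in normal clones, with 4 of 6 lower in normal clones and 6 of 6 lower in abnormal ones. Erythroid genes showed the opposite, at 59.2 to 228 CPM in NF fetuses and 1315 to 2949 CPM in normal clones, with 9 of 10 higher in normal clones and 7 of 10 higher in abnormal clones. Mural genes summed to 2099 to 2702 CPM in NF fetuses and 574 to 651 CPM in normal clones, with 2 of 7 lower. Of 12 leukocyte genes, 3 were lower in normal clones than in NF fetuses, and 5 were higher in abnormal clones. The part of these tissue differences in the levels of the 7 genes was not tested.

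Ratios to KDR within a library show the differences among the 7 genes without a scaling factor between libraries. VWF to KDR, in TPM, was 0.231 to 0.286 in the 5 day 30 clone libraries and 0.289 to 0.459 in day 35 normal clones. It was 0.154 and 0.0189 in the day 30 NF libraries and 0.0157 and 0.0133 in the day 35 NF libraries. All 4 NF libraries were below every clone library of these groups, though day 30 NF replicate 1, with its low KDR, lay much nearer to the clones. TEK to KDR was 0.195 to 0.267 in the same clones and 0.042 to 0.0489 in 3 NF libraries, but 0.191 in day 30 NF replicate 1. PECAM1 to KDR was 1.6 to 2.81 in those clones and 1.03 to 1.32 in the 4 NF libraries, again without overlap. These ratios are given with no test.

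**Figure D3:**
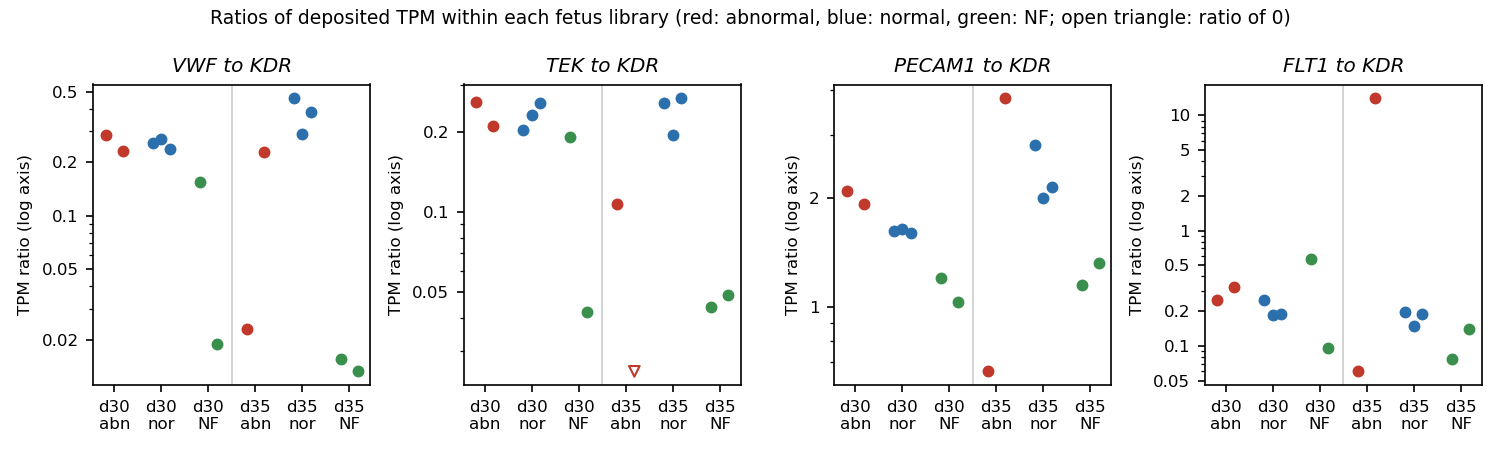
Ratio of deposited TPM of VWF, TEK, PECAM1 and FLT1 to that of KDR in each fetus library (log axes; red abnormal, blue normal, green NF; an open triangle marks a ratio of 0). The VWF to KDR ratio was 0.231 to 0.459 in day 30 clones and day 35 normal clones and 0.0133 to 0.154 in NF fetuses. The 2 day 35 abnormal libraries lay apart from each other in all 4 panels. In replicate 2 of these, the ratios rest on 3 counts of KDR, 1 of VWF, 5 of PECAM1 and 0 of TEK, so counting error there is large.

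Day 35 and day 30 NF fetuses were compared to see how the genes change with age outside cloning. None of the 7 genes was called, and edgeR called 0 of 9911 genes (0% higher and 0% lower). At an unadjusted p under 0.05 there was 1 of the 7 genes, VWF, and 3.54% of all genes, while DESeq2 called 0 of the 7 and, of all genes, 2 higher and 7 lower. VWF measured 7.35 and 6.29 CPM at day 35 against 13.9 and 9.45 CPM at day 30 (log2 fold change -0.78 ± 0.22, edgeR adjusted p = 1.0). KDR measured 323 and 327 CPM at day 35 and PECAM1 175 and 203 CPM. Both were close to or above day 30 NF replicate 2 and far above NF replicate 1. Without day 30 NF replicate 2, PECAM1 had a log2 fold change of 2.4 from day 30 to day 35 (edgeR adjusted p = 0.0162, with 1 day 30 library assumed to vary like the other groups), and with both libraries 0.91 ± 0.50. SOX7 measured 6.67 and 12.4 CPM at day 35, ARHGEF15 8.21 and 3.84 CPM, FLT1 28.1 and 51.5 CPM and TEK 9.58 and 10.7 CPM. The groups did not overlap for VWF and ARHGEF15, which were lower at day 35, or for PECAM1, which was higher, against 15.7% and 12.3% of all genes in those directions.

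In normal clones, day 35 levels did not overlap those of day 30 for 4 of the 7 genes. VWF measured 78.2, 79 and 87 CPM, PECAM1 157.5, 179 and 162 CPM, and KDR 117, 187 and 156 CPM. SOX7 measured 23.9, 31.2 and 32.4 CPM, ARHGEF15 24.4, 7.7 and 22.4 CPM, FLT1 25.7, 31.6 and 32.9 CPM, and TEK 20, 24.5 and 28.1 CPM. From day 30 to day 35 the log2 fold changes of normal clones lay between -0.38 ± 0.65 (FLT1) and 0.58 ± 0.50 (SOX7), with VWF at 0.39 ± 0.16. VWF, PECAM1 and SOX7 were higher at day 35 in every library and FLT1 was lower, beside 29.3% and 23.5% of all genes in those directions.

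The day 35 abnormal libraries were low in most of the genes and unlike each other in the VEGF receptors. Replicate 1 held 3.07 CPM of VWF, 0 of SOX7 and ARHGEF15, 29.2 CPM of PECAM1, 90.9 CPM of KDR, 6.14 CPM of FLT1 and 6.52 CPM of TEK. Replicate 2 held 2.7 CPM of VWF, 0 of SOX7, ARHGEF15 and TEK, 13.5 CPM of PECAM1, 8.09 CPM of KDR and 129.5 CPM of FLT1. Over the 14 libraries FLT1 was lowest in replicate 1, while in replicate 2 it was exceeded by day 30 abnormal replicate 2 alone. KDR was lowest in replicate 2.

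Counts behind these values were small, above all in replicate 2, where 3 counts correspond to 8.09 CPM. VWF had 8 counts in replicate 1 (95% exact Poisson interval 3.45 to 15.8, covering counting error only), where the mean level of day 35 normal clones would give 212. In replicate 2 it had 1 count where 30.2 would be given, and KDR had 3 counts (0.619 to 8.77) where 56.9 would be. FLT1 had 48 counts there (35.4 to 63.6) where 11.1 would be. For SOX7 the 0 counts stood against 76 and 10.8 at the normal level, and for ARHGEF15 against 47.3 and 6.73. For TEK in replicate 2, 0 counts stood against 8.97. At the normal level replicate 2 would thus hold 6.73 to 61.7 counts of a gene, the fewest for ARHGEF15.

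Described without a test, VWF was 26.8-fold lower in abnormal than in normal clones at day 35 (log2 fold change -4.74 ± 0.30), PECAM1 6.78-fold lower (-2.76 ± 0.57) and TEK 4.69-fold lower (-2.23 ± 0.45). SOX7 was at least 28.9-fold lower and ARHGEF15 at least 18-fold lower, against a floor of 3 counts over both abnormal libraries. KDR had a log2 fold change of -1.36 ± 0.70 and FLT1 of 0.79 ± 0.85. Without replicate 2 that of FLT1 was -2.24 and that of KDR -0.71, and without replicate 1 they were 2.09 and -4.26. Of the 7 genes 5 were past the threshold and lower, beside 12.3% of all genes, and 6 did not overlap, beside 25.9%, counts that the choice of genes may have fixed and from which nothing is read. Against NF fetuses, 5 were past it and lower, beside 10.2% of all genes. From day 30 to day 35 in abnormal clones 5 were past it and lower, beside 1.88%. Normal clones at day 35 had VWF 11.9-fold above NF fetuses (3.57 ± 0.21) and TEK 2.38-fold (1.25 ± 0.35), 2 of 7 past the threshold and higher beside 22.1% of all genes. KDR was at -1.08 ± 0.63 and PECAM1 at -0.18 ± 0.45 there. The day 35 comparisons share their libraries with each other.

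Summed levels of other marker lists were low, uneven, within the normal range or high in the day 35 abnormal libraries. Leukocyte genes summed to 40.5 and 92.1 CPM, against 198 to 274 CPM in day 35 normal clones, with PTPRC at 0. Erythroid genes summed to 5.4 to 2257 CPM over the 2 libraries, against 1439 to 2861 CPM in day 35 normal clones. Mural genes summed to 885 to 8673 CPM against 1152 to 1628 CPM, and trophoblast genes to 210 to 5436 CPM against 235 to 365.5 CPM. Summed hypoxia-induced genes lay above normal clones in both libraries, at 1400 to 15200 CPM against 892 to 1030 CPM. Gene by gene, 3 of these 8 lay above every normal clone in both libraries and 0 below. Of the 8, 7 were past the threshold and higher, beside 10.9% of all genes. Summed fibroblast matrix genes lay within the range of normal clones, at 17870 to 25010 CPM against 15230 to 25800 CPM. Gene by gene, 4 of these 6 lay below every normal clone and 0 above, beside 25.9% of all genes below. Of the 6, 2 were past the threshold and lower (median log2 fold change -0.78). Of 15 other pan-endothelial genes 11 were past the threshold and lower than in normal clones (median -2.84), as were 6 of 11 endothelial transcription factors and 6 of 10 arterial and Notch genes. Of all genes 12.3% were past it and lower. Nothing is read from these counts, since the lists were chosen with earlier results of these data known.

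The wider VEGF and angiopoietin pathway had 9 of 13 listed genes tested. Between abnormal and normal clones at day 30, 2 of 9 were called higher and 0 lower (median log2 fold change 0.24). Of all genes, 8.93% were called higher and 6.46% lower there. VEGFA was 490 ± 78.5 CPM (SD, n = 2) in abnormal clones and 62.8 ± 17.9 CPM (n = 3) in normal ones. PGF rose from 15.7 ± 2.37 to 73.7 ± 23.9 CPM (log2 fold change 2.23 ± 0.29, edgeR adjusted p = 0.00117). The log2 fold change of VEGFA was 2.97 ± 0.52 (edgeR adjusted p = 0.00493), beside 0.97 for its receptor KDR and 1.49 for FLT1, and the difference between ligand and receptor was not tested. ANGPT2 was 37.1 ± 4.33 against 20 ± 3.18 CPM (0.89 ± 0.30, edgeR adjusted p = 0.0636) and ANGPT1 26.2 ± 3.76 against 22.1 ± 2.3 CPM (0.24 ± 0.33, edgeR adjusted p = 0.66).

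Between normal clones and NF fetuses at day 30, 3 of the 9 pathway genes were higher and 3 lower (median 0.15). The angiopoietins were among both, and of all genes 14% were called higher and 15.3% lower. ANGPT1, the activating ligand of TEK, was 22.1 ± 2.3 CPM in normal clones and 7.75 ± 4.28 CPM in NF fetuses (log2 fold change 1.51 ± 0.35, edgeR adjusted p = 0.00903). ANGPT2 was 20 ± 3.18 against 55.7 ± 18.7 CPM (-1.48 ± 0.28, edgeR adjusted p = 0.00378). VEGFD, a ligand of lymphatic vessels, was higher in normal clones (2.26 ± 0.66), and PGF (-1.73 ± 0.29) and NRP1, a co-receptor of KDR (-2.48 ± 0.62), were lower. VEGFA did not pass (-0.67 ± 0.51, edgeR adjusted p = 0.349). Between abnormal clones and NF fetuses 4 of 9 were higher and 1 lower, beside 15.5% and 14.5% of all genes. VEGFA (2.30 ± 0.58), VEGFD (2.12 ± 0.71), ANGPT1 (1.75 ± 0.38) and PTPRB, a phosphatase that acts on TEK (1.30 ± 0.38), were called higher, and NRP1 was lower (-2.32 ± 0.72). VEGFD and PTPRB lost that call with limma on log2(TPM + 1), as VEGFD did between normal clones and NF fetuses. VEGFC, NRP2, FLT4 and TIE1 are not analysed here, since none of their records matched.

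Other pan-endothelial genes, 15 of 20 tested, moved in both directions. Between abnormal and normal clones at day 30, 1 was called higher and 0 lower (median 0.67), beside 8.93% and 6.46% of all genes. The gene called was RASIP1, a regulator of vessel lumen formation, at 130.3 ± 26.1 against 65.2 ± 7 CPM (log2 fold change 1.00 ± 0.22, edgeR adjusted p = 0.0128, and 0.0552 with limma on log2(TPM + 1)). With both libraries that stand apart left out, 6 of the 15 were called higher, and with DESeq2 4. Between normal clones and NF fetuses 4 were higher and 2 lower (median 0.24), beside 14% and 15.3% of all genes. The tight junction gene CLDN5 was 70.1 ± 11.7 CPM in normal clones against 15.6 ± 11.3 CPM in NF fetuses (2.17 ± 0.47, edgeR adjusted p = 0.00674), and KANK3 differed by 2.52 ± 0.66. ENG, a co-receptor of TGF-beta signalling also made by stromal cells, went the other way at 116 ± 10.8 against 764 ± 144 CPM (-2.72 ± 0.18, edgeR adjusted p = 2.82e-05), as did CLEC14A (-1.81 ± 0.56, a call that ended with limma on log2(TPM + 1), adjusted p = 0.12). Between abnormal clones and NF fetuses 6 were higher and 1 lower, beside 15.5% and 14.5% of all genes. Among the 6 were NOS3, the endothelial nitric oxide synthase (2.83 ± 0.45), CLDN5 (2.64 ± 0.51) and ECSCR (2.53 ± 0.71), and ENG was lower (-2.76 ± 0.22). CDH5 is likewise not analysed here.

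Endothelial transcription factors, 11 of 15 tested, had 1 higher and 2 lower between abnormal and normal clones at day 30 (median -0.46). Of all genes, 8.93% were called higher and 6.46% lower there. KLF4, a factor induced by blood flow, was 83.6 ± 20.8 against 30.8 ± 0.0598 CPM (1.44 ± 0.34, edgeR adjusted p = 0.0174). MEF2C was 25.7 ± 4.81 against 63 ± 10.6 CPM (-1.29 ± 0.35, edgeR adjusted p = 0.0316), and ERG, a factor that maintains endothelial identity, was 41.7 ± 6.4 against 75.7 ± 9.3 CPM (-0.86 ± 0.26, edgeR adjusted p = 0.0477). The ERG call ended with the median-ratio size factors of DESeq2 in edgeR and the KLF4 call on log2(TPM + 1). ERG thus lay lower in abnormal clones, in which the 7 genes had higher means. Between normal clones and NF fetuses 3 were higher and 1 lower (median 0.61), beside 14% and 15.3% of all genes. These were GATA2 (1.82 ± 0.41), TAL1 (1.66 ± 0.42) and ERG (1.16 ± 0.26) against KLF4 (-2.61 ± 0.33). Between abnormal clones and NF fetuses 2 were higher and 2 lower, beside 15.5% and 14.5% of all genes. TAL1 (2.44 ± 0.46) and GATA2 (1.93 ± 0.44) were higher, and EPAS1 (-1.43 ± 0.40) and KLF4 (-1.17 ± 0.37) were lower. The call of KLF4 ended there with the same size factors (-1.04, edgeR adjusted p = 0.054).

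Arterial and Notch genes, 10 of 12 tested, had 3 higher and 1 lower between abnormal and normal clones at day 30 (median 0.38). Of all genes, 8.93% were called higher and 6.46% lower there. UNC5B, a guidance receptor of arterial and tip cells, was 734 ± 214 against 154 ± 14.4 CPM (2.25 ± 0.62, edgeR adjusted p = 0.0337), and DLL4, the Notch ligand of tip cells, 60.7 ± 31.5 against 13.5 ± 4.81 CPM (2.16 ± 0.55, edgeR adjusted p = 0.0243). NOTCH4 was also higher (1.30 ± 0.39), while GJA5, a connexin of arteries and of the heart, was lower at 18.7 ± 11.6 against 67.5 ± 12.2 CPM (-1.85 ± 0.41, edgeR adjusted p = 0.0139). On log2(TPM + 1) DLL4 and GJA5 were still called and UNC5B and NOTCH4 were not. Between normal clones and NF fetuses 3 of the 10 were higher and 0 lower (GJA5, HEY2 and NOTCH4), and between abnormal clones and NF fetuses 3 and 0 (UNC5B, NOTCH4 and DLL4). Of all genes, 14% and 15.5% were called higher in these comparisons, in that order, and 15.3% and 14.5% lower. The HEY2 call ended on log2(TPM + 1) (limma adjusted p = 0.0533), and that of DLL4 without both libraries that stand apart (1.35, edgeR adjusted p = 0.0607). Venous and lymphatic genes, 5 of 6 tested, had none called by edgeR between abnormal and normal clones. NR2F2, a venous factor also present in mesenchyme, was higher in normal clones than in NF fetuses (1.46 ± 0.29, edgeR adjusted p = 0.00456), and the lymphatic gene PDPN was lower (-1.16 ± 0.33, edgeR adjusted p = 0.0219). Both were called in the same directions in abnormal clones. On log2(TPM + 1) the PDPN call in normal clones ended (limma adjusted p = 0.0529).

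Genes induced by low oxygen were also high in the day 30 abnormal clones, with 6 of 8 called higher than in normal clones (median 2.68) and 6 of 8 higher than in NF fetuses (median 2.80). Of all genes, 8.93% and 15.5% were called higher in these comparisons. The summed level of the 8 was 7273 to 8172 CPM in abnormal clones, 1013 to 1050 CPM in normal ones and 825 to 1016 CPM in NF fetuses. Normal clones differed from NF fetuses in 1 of the 8, ADM, which was lower, beside 15.3% of all genes. The part of these genes' regulation in the levels of the 7 was not tested.

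**Figure D4:**
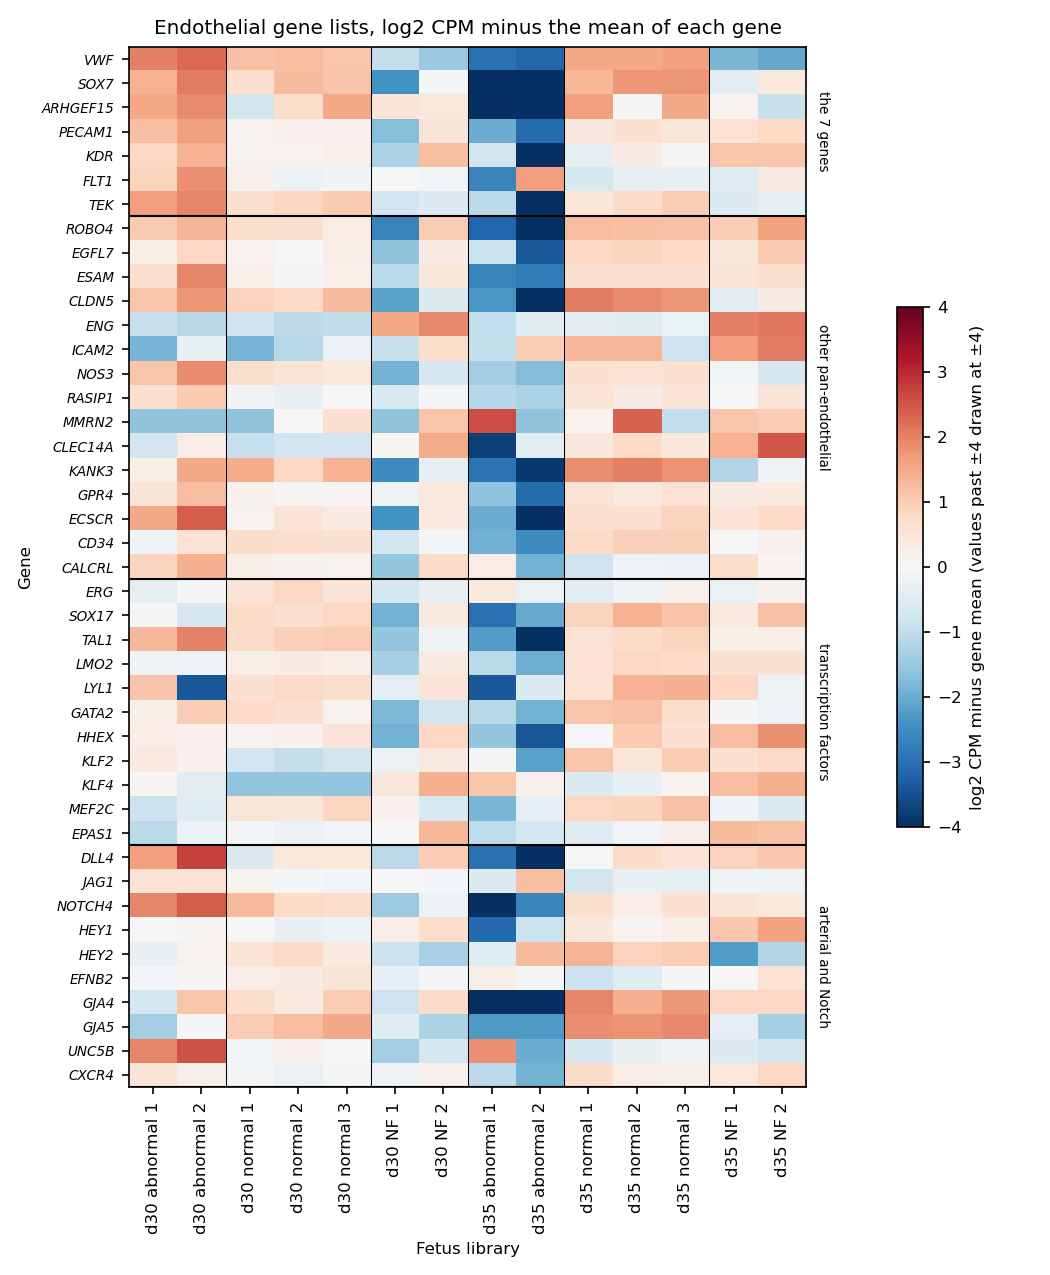
Log2 CPM of the 7 genes and of the tested genes of the endothelial lists in each of the 14 fetus libraries, each gene centred on its mean over libraries (colour). Both day 35 abnormal libraries were low for most endothelial genes, with FLT1 high in replicate 2, and day 30 abnormal replicate 2 was the highest of the 14 libraries for each of the 7 genes.

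The 7 genes differed in how closely they followed each other over the 14 libraries, which share depth and the low day 35 abnormal pair. Pearson's r of log2 CPM with the mean of the other 6 was 0.95 for SOX7, 0.91 for PECAM1, 0.86 for ARHGEF15, 0.85 for TEK, 0.80 for VWF and 0.69 for KDR. FLT1 stood apart at 0.14, a value that includes day 35 abnormal replicate 2. There FLT1 was high (129.5 CPM from 48 counts) while the other 6 genes were low. The r of FLT1 without that library was not computed. The closest of the 21 pairs were SOX7 and PECAM1 at 0.92 and PECAM1 and KDR at 0.90, while VWF and KDR had 0.43.

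The 10 genes most like the mean of the 7, by the same measure among 9307 candidates, were CD93 (r = 0.985), LAPTM5 (0.975), TAL1 (0.962), ESAM (0.955), BCL6B (0.947), EDNRB (0.938), ECSCR (0.938), PTPRB (0.936), DLL4 (0.936) and PDE2A (0.932). CD93, ESAM and ECSCR are known from endothelial cells, and LAPTM5 is a gene of leukocytes. A day 35 abnormal library was the lowest for each of the 10.

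The genes lie on 6 chromosomes of the build Sscrofa11.1, in positions that RefSeq gives as follows. VWF spans 64516627 to 64655938 on chromosome 5, SOX7 13938381 to 13945324 on chromosome 14 and TEK 195938177 to 196052294 on chromosome 1. PECAM1 spans 14667643 to 14723296 and ARHGEF15 53495409 to 53506373, both on chromosome 12. KDR spans 41809116 to 41856379 on chromosome 8 and FLT1 5620698 to 5797095 on chromosome 11. The deposited tables held all 4 annotated transcripts of PECAM1 and both of KDR, but 1 of 7 for TEK, 1 of 5 for FLT1 and 1 of 2 for VWF, so the levels of those 3 are those of the matched record alone. Outside the day 35 abnormal libraries the longer KDR record held 62.4% to 78.8% of the gene's TPM and the curated PECAM1 record 46.8% to 57%. The share of each of these records thus moved little over 12 libraries, while the totals of PECAM1 differed several-fold.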

How the data were processed

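Each of the 22 libraries has 1 deposited table of 65927 RefSeq transcript records. Expected counts per record, as the file headers name them, were made by the authors with RSEM 1.2.4 on the pig build Sscrofa11.1 (susScr11), per the submitters' processing notes. The deposited TPM is the length-scaled abundance of the same tool, per the file headers. The aligner is not given in the sources used here. Per the labels' protocols, fetus libraries were built from total RNA.

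Records were matched to symbols of the RefSeq table of Sscrofa11.1 by accession without version (25305 records, 38.4%, in 14389 symbols), and expected counts and TPM were summed per symbol. Rounded counts passed filterByExpr, were normalized with TMM factors and were fitted over all 14 fetus libraries with a mean per titled group in edgeR 4.0.16 (R 4.3.3). Quasi-likelihood F-tests were adjusted by Benjamini-Hochberg over 9911 genes, with a threshold of 0.05. An SE is the log2 fold change divided by the square root of F. The biological coefficient of variation was 0.29. A gene undetected in a group is set at a floor of 3 counts summed over its libraries, and intervals and floors cover counting error only, since reads carried no molecular identifiers in the sources used here.

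The 7 genes and all gene lists were chosen with earlier results of these data known. The text names all 7, up to 4 called genes per list and tested comparison by size of change, 7 pathway genes whatever their values (those with a record), and the 10 genes most correlated with the 7. Lists were the VEGF and angiopoietin pathway, other pan-endothelial genes, endothelial transcription factors, arterial and Notch, venous and lymphatic, mural, megakaryocyte, leukocyte, erythroid, trophoblast, fibroblast matrix and hypoxia genes. In the cell type and hypoxia lists counts are given in place of most names.

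Alternatives were median-ratio (RLE) size factors, no filter, a filter at 1 CPM, DESeq2 1.42.0, limma 3.58.1 on log2(TPM + 1) and log2(TPM + 0.1), fits of the compared groups alone, a block for replicate number, a covariate for labelled sex, matching of records with their version, and each library left out. Leaving out both libraries that stand apart was added after seeing the data. On simulated counts for day 30 abnormal against normal, 79.5% of 200 genes changed by a log2 fold of 2 were called, and 0.09% of unchanged genes. The simulation gave all genes the same dispersion, no other group difference and no library that stands apart. The 7 genes differed by a log2 fold of 0.72 to 1.49 in that comparison. These rates therefore check the code and cannot be taken as those of the tests reported here. Summaries were made in Python 3.11.15 (pandas 2.3.3, numpy 2.4.6, scipy 1.17.1, matplotlib 3.10.9).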

Additional observations from a re-analysis of the deposited data

Results flagged for a closer look

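Between abnormal and normal clones, 5 of the 7 genes moved in opposite directions at the 2 days: both abnormal libraries lay above every normal library at day 30 and below every one at day 35. Of all genes tested, 30.9% lay apart with abnormal clones higher at day 30, and 25.9% with abnormal clones lower at day 35. The share of all genes that did both was not computed, so the count has no baseline. The day 35 log2 fold change minus that of day 30 was -5.71 for VWF, -4.05 for PECAM1, -3.19 for TEK and -2.33 for KDR. For SOX7 it was -10.79, a value that depends on the prior count because both day 35 abnormal libraries held 0 counts. These differences between days were not tested, since day 35 results were known when the genes were chosen.

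In the day 6 embryos, which no comparison here uses, 3 of the 7 genes had counts above the limit that 0 counts allow. PECAM1 was detected above 3 counts in all 8 embryo libraries, at 1.34 to 41.9 CPM, with the highest count, 215, in the in vitro fertilized (IVF) embryo replicate 2. In both WT libraries and in XIST-KO replicate 1 all PECAM1 counts lay in the same record, and the curated record had 0. FLT1 was above 3 counts in 5 of 8 libraries, with 81 counts in each of the WT+Kdm4A libraries, and VWF in 1, with 16 counts in IVF replicate 2. KDR, TEK and ARHGEF15 had 0 counts in all 8 libraries, and SOX7 at most 1.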

How the results depend on the processing

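The number of the 7 genes called moved as follows, with the share of all genes called beside it. Between abnormal and normal clones at day 30 (1 called, 15.4% of all genes) it was 3 with DESeq2 (21%), 0 on log2(TPM + 1) (19.7%) and on log2(TPM + 0.1) (16%), 5 with only the compared groups (42.2%), 2 with sex as a covariate (16.4%), 5 with both libraries that stand apart left out (36.3%), and 0 to 4 on leaving out 1 library (4.05% to 31.6%). For normal clones against NF fetuses at day 30 (3, 29.3%) it was 2 to 4 on leaving out 1 library (12.5% to 43.3%), and for abnormal clones against NF fetuses (4, 30%) 2 to 5 (10.9% to 45.3%). For NF fetuses between days (0) it was 1 with the sex covariate (0.222%) and 0 to 1 on leaving out 1 library (0% to 0.215%). Day 30 NF replicate 2 alone is labelled female among the fetus libraries, so the sex covariate comes close to leaving that library out, and its label goes against EIF1AY. With records matched by version, where only VWF and PECAM1 were tested, it was 1 for normal clones and 1 for abnormal clones against NF fetuses at day 30. At day 35, where the share of all genes also moved (14.5% to 35.1%, 21% to 54.9% and 3.48% to 45.9% on leaving out 1 library, in the order given), abnormal against normal clones (5) gave 3 with only the compared groups, 2 by version and 4 to 6 on leaving out 1 library. Normal clones against NF fetuses (2) gave 4 with DESeq2, 1 on log2(TPM + 0.1), 5 with only the compared groups, 1 by version, 4 without both libraries and 1 to 3 on leaving out 1. Abnormal clones against NF fetuses (5) gave 0 with only the compared groups, 1 by version and 0 to 5 on leaving out 1. Between days, normal clones (0) gave 2 with only the compared groups, 1 without both libraries and 0 to 0 on leaving out 1, and abnormal clones (5) gave 0, with only the compared groups, 2 by version and 2 to 6.

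Log2 fold changes turned sign for 4 genes in tested comparisons. In normal clones against NF fetuses at day 30 that of KDR was 0.22 on log2(TPM + 1), 0.25 on log2(TPM + 0.1) and 1.44 with the sex covariate (-1.02 to 1.44 on leaving out 1 library). That of PECAM1 was -0.35 without both libraries (-0.35 to 1.86), that of FLT1 -0.01 with the sex covariate (-0.1 to 0.11) and that of ARHGEF15 -0.11 with the replicate block (-0.32 to 0.73). KDR was -0.05 without both libraries in abnormal clones against NF fetuses (-0.05 to 2.4), and -0.09 in NF fetuses between days (-0.09 to 2.39). FLT1 was -0.07 with the replicate block between days in NF fetuses (-0.45 to 0.43). The cause was not tested, except that leaving out samples or matching by version leaves fewer libraries or genes.

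Replicate numbers did not pair the libraries: over 31 same-numbered pairs the correlation of deviations was -0.072 to 0.148, with 2 pairs over 0.1. With the replicate block, the 7 genes had 1, 3, 4 and 0 called in the tested comparisons, the same numbers as without it, and 3 in place of 5 in abnormal clones against NF fetuses at day 35. Calls over all genes between abnormal and normal clones at day 30 were 885 higher and 640 lower, 425 and 308 with the block, and 542 and 1412 on log2(TPM + 1). At day 35 they were 1085 and 1215, and 497 and 2382 on log2(TPM + 1).

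In day 35 abnormal replicate 2, 3 counts equal 8.09 CPM, so low levels of these genes were not detectable there. A fit that leaves an arm with 1 library assumes that it varies like the other groups.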
